A study of Glycine max with 46 samples.

Results

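The genes described here are 5 soybean genes whose transcripts were concentrated in the hilum, out of 56044 genes measured. They were chosen by their RPKM in these data, each being over 40-fold higher in dissected hilum than in the rest of the seed coat, so their values in that contrast are a description with no test. They are Glyma.06G069400 (described as plant natriuretic peptide A), Glyma.06G248800 (ABC-2 type transporter family protein), Glyma.06G277400 (DUF640 protein, LSH10) and the pair Glyma.03G018200 and Glyma.03G018300 (ribonuclease H-like superfamily proteins). The numbers before the G in these names place 3 of them on chromosome 6 and 2 on chromosome 3. Each was followed in 46 RNA-seq libraries as RPKM, the authors' read number divided by cDNA length and by the counted alignments of the library, so that levels of different genes can be set side by side.

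The hilum is the scar of the stalk that joins the seed to the pod. In the developing seed the vascular strand that feeds the seed enters there, and the coat spreads the incoming sugars and amino acids toward the embryo. In soybean the I locus sets where the coat is pigmented, through RNA silencing of chalcone synthase genes. The i-i allele leaves pigment only in the hilum, the dominant I allele gives a yellow coat, and the recessive i allele lets the whole coat turn dark.

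Plant natriuretic peptides are small secreted proteins related to expansins, studied in Arabidopsis for effects on water and ion balance. ABC-2 type transporters are membrane pumps that use ATP to carry substrates such as lipids or hormones. DUF640 proteins, also called ALOG or LSH proteins, are small plant nuclear proteins, and LSH relatives in Arabidopsis are known from organ boundaries. The ribonuclease H fold occurs in nucleases and in transposon-derived proteins, and the description gives no more specific role to this pair.

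The dissected tissue came from greenhouse plants of Williams (W43, genotype i-i RT w1, yellow coat and black hilum). There were 4 hilum libraries and 4 libraries of coat without hilum, with 2 of each from seeds of 25-50 mg and 2 from seeds of 50-100 mg fresh weight. A second table held 38 libraries of other material. It had 27 libraries of whole seed coats, hilum included, with 5 at 5-6 mg, 12 between 10 and 100 mg and 10 between 300 and 500 mg, and it had 4 libraries of whole seeds, 2 of young leaf, 2 of young root, 2 of flooded root and 1 of flowers.

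The whole coats came from W43, from W44 (Williams 44, genotype i RT w1, an inversion at i, black coat), and from W55 (Williams 55, a 138 kb deletion at i, black coat). Others came from Richland (I R t, yellow), T157 (i R t, labelled an i mutation, imperfect black), RM38 (a Clark isoline, i r T W1, brown), UC9 (Clark, i R T W1, with the 138 kb deletion, black), UC501 (Harosoy, I r T W1, yellow) and UC508 (a Harosoy isoline with the same genotype and defective, net-patterned coats). W55 is labelled i R w1 at 5-6 mg and in whole seed, i-i RT w1 at 300-500 mg and iRT w1 in root, so its genotype label disagrees between libraries. Whole seeds were taken 5 days after flowering from Richland, T157 and W55. Leaves came from 4 week old plants of Richland and T157, and roots from 4 week old plants of W54 (the same line as W43) and W55. Flooded roots came from 5 day old W43 seedlings after 12 and 24 hours under water, and flowers from L79-908, a purple-flowered Williams isoline whose labels give both w1 and W1. Except for W55 at 5-6 mg and in whole seed, each line had 1 library per stage, and nothing in the labels says how many plants were pooled. The spread between libraries may therefore be technical in part.

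Counted alignments ranged from 78.3 M to 545.0 M per library in the hilum table and from 18.1 M to 412.7 M in the other. Libraries that stood apart were both W55 coats at 5-6 mg, in which 88.6% and 80.6% of alignments fell in models with no description, and the W44 coat at 50-100 mg with 56.2%. That share was 7.58% to 18% in the other 43 libraries. RPKM divides by all counted alignments, so a high share lowers the RPKM of the described genes together, and the tests against coats of 10-100 mg were repeated without these libraries. The tissue labels were checked with summed RPKM of marker lists. Leaf genes summed to 32900 and 68700 in leaf and at most 5140 elsewhere. Root genes summed to 351 to 629 in the 4 root libraries and at most 160 elsewhere. Xylem and secondary wall genes summed to 799 to 1610 in hilum and 196 to 647 in coat without hilum, so markers of vascular tissue moved with the contrast that chose the 5 genes, and their part in it was not tested. The 120 flower genes did not set the flower library apart, since their sum there lay within the 95.6 to 316 of whole seeds.

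In dissected hilum the natriuretic peptide gene Glyma.06G069400 stood at 80.3 and 44.5 RPKM at 25-50 mg and at 57.7 and 74.5 RPKM at 50-100 mg. The coat without hilum gave 0.0322, 0.164, 0.0327 and 0 RPKM in the same order, or 15 reads in 884.4 M alignments. The group means were 64.2 ± 16.3 and 0.0572 ± 0.0728 RPKM (SD, n = 4 libraries each), a ratio of 1122. Every hilum library was far above every coat library. Fewer cells of a type and less RNA per cell cannot be told apart in such bulk tissue.

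The transporter gene Glyma.06G248800 gave 38.4, 28.4, 38.8 and 36.2 RPKM in hilum, a mean of 35.5 ± 4.84 (SD, n = 4). The rest of the coat gave 0.0308, 0.131, 0.101 and 0.121 RPKM, and the ratio of the means was 370. Its hilum libraries lay closer together than those of the natriuretic peptide gene.

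The DUF640 gene Glyma.06G277400 gave 50.0, 51.8, 59.0 and 66.3 RPKM in hilum, a mean of 56.8 ± 7.44 (SD, n = 4). Its level in the coat without hilum, at 0.9498, 1.41, 1.41 and 1.35 RPKM, was the highest of the 5. Its ratio of 44.4 was the lowest of the 5.

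The ribonuclease H-like gene Glyma.03G018200 gave 49.8, 20.3, 42.7 and 9.97 RPKM in hilum, a mean of 30.7 ± 18.7 (SD, n = 4). The coat gave 0.0350, 0.0198, 0.0473 and 0.0416 RPKM, and the ratio was 855. The first library of each weight was higher than the second. Those first libraries, of hilum and coat alike, share a lower-numbered title series, and their deviations from the group means over all genes correlated at 0.44 to 0.66 in 6 pairs. Glyma.03G018300 had the same number of reads as Glyma.03G018200 in 32 of the 46 libraries and differed by at most 11.2% in the other 14. Whether reads matching both were counted for each is not given, so the pair cannot be told apart, and values below are those of Glyma.03G018200. Counts out of 5 include both genes of the pair, although they are not separate measurements.

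**Figure D1:**
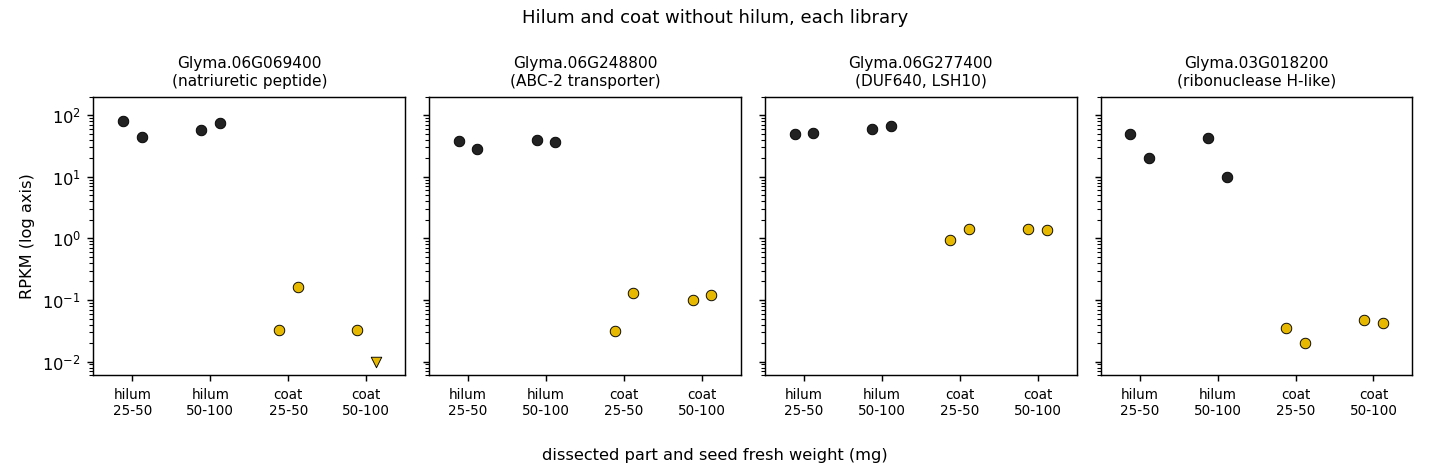
RPKM (log axis) of 4 genes in each library of dissected hilum (black) and coat without hilum (yellow), by seed fresh weight in mg. The hilum libraries lie between 9.97 and 80.3 RPKM and the coat libraries at or under 1.41 RPKM. A triangle marks a library at 0, drawn at the foot of the axis. Glyma.03G018300, not drawn, overlies Glyma.03G018200.

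Of 12894 genes with a hilum mean of at least 5 RPKM, 69 passed the 40-fold ratio (0.535%), and 55 of them had a description. Among these 12894 the natriuretic peptide gene ranked 4 by ratio, the ribonuclease H-like pair 5 and 6, the transporter gene 18 and the DUF640 gene 66. Among described genes, those just above the threshold were Glyma.01G105700 (lipid-transfer and 2S albumin type, 42.5-fold), Glyma.06G277400 itself and Glyma.01G105800 (the same type, 44.6-fold). Just below it came Glyma.12G177900 (a serine carboxypeptidase-like gene, 33.0-fold), Glyma.12G080100 (a xyloglucan endotransglucosylase, 31.4-fold) and Glyma.08G212500 (a blue-copper-binding protein, 31.15-fold). The ratio divides by very low coat values. With 1 RPKM added, as in the tests, the ratios of the 5 genes were 25.3 to 60.3, and 6 genes exceeded 40.

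Whether the genes changed inside the hilum between the weights was tested with limma on log2(RPKM + 1) over 29296 genes, where a gene passed if its p after Benjamini-Hochberg adjustment was under 0.05. None of the 5 passed, while 40 of all genes passed (0.137%), or 188 once the title series was added as a block, and 2136 had an unadjusted p under 0.05. The largest change was that of the ribonuclease H-like gene, -0.59 ± 0.64 (log2, SE) with an adjusted p of 0.954, and its 4 values overlapped between weights. For the DUF640 gene both libraries at 50-100 mg lay above both at 25-50 mg, with a difference of 0.29 ± 0.14 and an adjusted p of 0.744, or 0.345 with that block. Unadjusted p was under 0.05 for none of the 5 without the block and for the DUF640 gene with it. The natriuretic peptide and transporter genes gave 0.13 ± 0.27 and 0.18 ± 0.16.

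In whole coats, which hold the hilum together with the larger rest of the coat, all 5 genes were detected in every library of 10-100 mg. In W43, the line that was dissected, the natriuretic peptide gene stood at 5.04 RPKM in whole coat of 25-50 mg and 3.91 RPKM at 50-100 mg, or 8.07% and 5.92% of the hilum mean at the same weight. The transporter gene stood at 11.6% and 4.62% of it, the DUF640 gene at 20.2% and 12.7% and the ribonuclease H-like gene at 36.9% and 18.9%. The last 2 shares are loose, because the hilum libraries behind them differed, at 49.8 and 20.3 RPKM and at 42.7 and 9.97 RPKM. The 2 tables were normalised separately, so these percentages are levels set side by side and not tests.

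The 5 genes divided in older coats. Between 10-100 mg and 300-500 mg, 4 of the 5 genes fell (background 26.1% of 32078 genes) and 1 rose (background 17.6%). The natriuretic peptide gene passed the filter on mean RPKM only through coats of up to 100 mg, so its fall is best read as a description. The natriuretic peptide transcript all but disappeared, the DUF640 and ribonuclease H-like transcripts dropped, and the transporter transcript increased several-fold.

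In the 12 coats of 10-100 mg the natriuretic peptide gene ranged from 1.86 RPKM (W44, 50-100 mg) through a median of 6.17 to 24.5 RPKM (RM38, 25-50 mg). Of the 10 coats of 300-500 mg, 9 were at 0 and W55 at 300-400 mg gave 0.0539 RPKM. The older coats together held 2 reads in 991.0 M alignments against 3849 reads in 1477.6 M alignments, a pooled level 1290-fold lower with an exact 95% counting interval of 357 to 10700. No older coat reached the lowest younger coat, which without that W44 library was T157 at 3.01 RPKM. The fall was -2.88 ± 0.24 on the log2(RPKM + 1) scale (limma, Benjamini-Hochberg adjusted p = 1.79e-12), a scale that understates changes of values near 0.

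The transporter gene ranged from 0.526 RPKM (W44, 50-100 mg) through a median of 3.09 to 4.11 RPKM (W44, 25-50 mg) in the younger coats, with a lowest value of 0.840 RPKM without the W44 coat of 50-100 mg. In the older coats it ranged from 3.43 RPKM (W55, 300-400 mg) through a median of 12.25 to 39.05 RPKM (T157, 400-500 mg). Apart from W55 at 300-400 mg, every older coat lay above every younger one. The means were 17.2 ± 11.4 (SD, n = 10) and 2.68 ± 1.37 RPKM (SD, n = 12), 6.41-fold apart, and the rise was 2.14 ± 0.29 (adjusted p = 1.46e-07 by limma). The highest older coat thus stood beside the 28.4 to 38.8 RPKM of younger dissected hilum, set across separately normalised tables. No dissected hilum of 300-500 mg was analysed here, so where in the older coat the transcript lay was not measured.

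The older coats fell into an order by line for this gene. T157 gave 26.75 and 39.05 RPKM and Richland 22.4 and 28.4 RPKM at 300-400 and 400-500 mg. W43 gave 11.3 and 12.7 RPKM and W44 11.8 and 9.85 RPKM, and W55 was lowest with 3.43 and 6.35 RPKM. The values of T157 and Richland overlapped, as did those of W43 and W44, while those 2 pairs of lines and W55 were separate from each other. The separation of Richland and T157 from the Williams lines was not tested.

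The DUF640 gene ranged from 3.63 RPKM (T157, 50-100 mg) through a median of 8.41 to 16.1 RPKM (RM38) in the younger coats and from 0.775 through 1.17 to 2.83 RPKM in the older ones. The groups did not overlap. It fell by 1.95 ± 0.21 on the log2 scale (adjusted p = 6.68e-10 by limma), from a mean of 8.92 ± 3.68 (SD, n = 12) to 1.45 ± 0.582 RPKM (SD, n = 10). The natriuretic peptide and DUF640 genes were thus 2 of the 5 whose older coats all lay below the younger ones, as for 10.1% of all genes tested.

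The ribonuclease H-like gene ranged from 0.375 RPKM (Richland, 50-100 mg) through a median of 3.59 to 20.4 RPKM (W43, 10-50 mg) in the younger coats and from 0.0757 through 0.280 to 0.721 RPKM in the older ones. The groups overlapped, because younger coats of Richland, T157 and RM38 were already low. It fell by 1.75 ± 0.38 (adjusted p = 0.000229 by limma). Its 7 younger W43 and W44 coats lay between 3.47 and 20.4 RPKM, and the other 5 between 0.375 and 3.54 RPKM. That difference between lines was not tested.

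**Figure D2:**
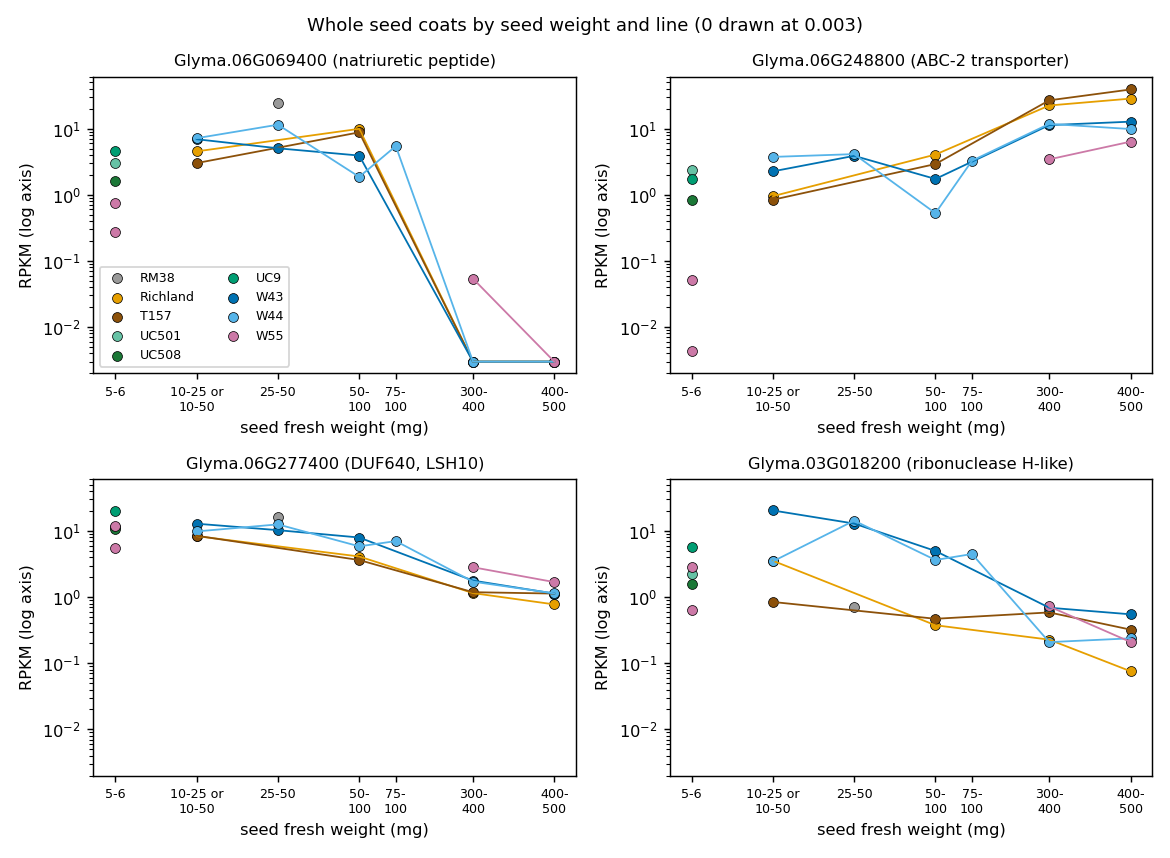
RPKM (log axis) in whole seed coats against seed fresh weight in mg, with each point a library, coloured by line, and lines joining the libraries of a line from 10 mg on. Values of 0 are drawn at 0.003. The natriuretic peptide gene drops to 0 in 9 of 10 coats of 300-500 mg, the transporter gene climbs to 3.43 to 39.05 RPKM there, and the DUF640 and ribonuclease H-like genes decline.

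Genes that mark embryo and cotyledon moved with this comparison. Their summed level over 14 genes was 9.26 to 145 RPKM in coats of 10-100 mg and 249 to 780 RPKM in coats of 300-500 mg, and their part in the results was not tested. The summed leaf genes moved the other way without overlap, from 1060 to 3490 RPKM in the younger coats to 343 to 733 RPKM in the older, and their part was not tested either. Xylem and secondary wall genes had overlapping sums, with medians of 292 RPKM in the younger and 225 RPKM in the older coats. All 5 calls held without the W44 library that stood apart and with line as a block, and also over 4 lines at 4 stages. The first of these stages was 10-25 mg in Richland and T157 and 10-50 mg in W43 and W44.

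At the other end of development, in coats of 5-6 mg, the natriuretic peptide gene stood at 4.64 RPKM in UC9, 3.04 RPKM in UC501, 1.60 RPKM in UC508 and 0.274 and 0.746 RPKM in W55. The transporter gene gave 1.71, 2.34 and 0.834 RPKM in UC9, UC501 and UC508 and 0.00437 and 0.0506 RPKM in W55. Both W55 libraries were the lowest for these genes as deposited. Scaled to alignments in described models, the natriuretic peptide gene stood at 2.41 and 3.86 in W55, above the 1.74 of UC508, while the transporter gene was still lowest in W55. Against coats of 10-100 mg these 2 of the 5 genes were lower (38.8% of all genes were). The differences were -1.48 ± 0.30 (adjusted p = 0.00302) and -0.94 ± 0.36 (adjusted p = 0.0409 by limma). No line had coats in both weight groups, so weight and line cannot be told apart in this comparison. The natriuretic peptide gene passed the filter on mean RPKM only through coats of 10-100 mg. Its lower level at 5-6 mg is thus best read as a description. Without both W55 libraries neither of these 2 genes passed, with differences of -0.92 ± 0.33 (adjusted p = 0.190) and -0.42 ± 0.43 (adjusted p = 0.646 by limma). In that fit only 0.0863% of all genes were lower, so the loss is not particular to these genes. With all libraries scaled to described models, where 12.2% of all genes were lower, the natriuretic peptide gene passed, at -1.03 ± 0.25 (adjusted p = 0.00557). The transporter gene did not (adjusted p = 0.0511). With line as a block the transporter gene did not pass (adjusted p = 0.232), and the ribonuclease H-like gene did, at -1.504 ± 0.68 (adjusted p = 0.0412). In that fit 85.3% of all genes were lower, with a median of -1.48. Since UC9, UC501 and UC508 had 1 library each, its 5-6 mg difference rests on the W55 libraries.

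The 5-6 mg comparison depended on the W55 libraries of 5-6 mg throughout. The median difference of all genes was -0.50 with them and 0.12 without. The DUF640 gene stood at 20, 11.6 and 10.5 RPKM in UC9, UC501 and UC508 and at 5.45 and 12.0 RPKM in W55, overlapping the coats of 10-100 mg, with a difference of 0.38 ± 0.26 (adjusted p = 0.208). When every library was scaled to its alignments in described models, the W55 values became 47.8 and 62.1, above every other whole coat, and the DUF640 gene rose by 1.28 ± 0.30 (adjusted p = 0.00455). The ribonuclease H-like gene gave 5.63, 2.21 and 1.60 RPKM in UC9, UC501 and UC508 and 0.646 and 2.88 RPKM in W55, and was not called at -0.51 ± 0.47 (adjusted p = 0.355).

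Whole seeds 5 days after flowering showed a different pair of genes. The DUF640 gene stood at 27.7 RPKM in Richland, 26.9 in T157 and 15.6 and 11.2 in W55, and the ribonuclease H-like gene at 3.92, 5.81, 17.8 and 29.2 RPKM in the same libraries. The natriuretic peptide gene had 1 read each in Richland and T157 and none in W55, or 2 reads in 319.0 M alignments, a pooled level 415-fold below coats of 10-100 mg with an interval of 115 to 3430. The transporter gene was at 0.366, 0.229, 0 and 0.0461 RPKM. So the natriuretic peptide transcript was at the limit of detection, and the transporter transcript was low in Richland and T157, from 60 and 36 reads, and at or near 0 in W55.

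W55 is the line with both whole seed and coats of 5-6 mg, whose age in days the labels do not give. Of its 3 genes that passed the filter of a mean RPKM of 1, the ribonuclease H-like pair was higher in whole seed than in the 5-6 mg coat, by 3.24 ± 0.38 (adjusted p = 2.8e-16 by limma). The ribonuclease H-like pair counts as 2 of the 5 genes here. In that fit 95.5% of all genes were higher in whole seed, with a median difference of 1.80, so the count says nothing particular to the pair. After rescaling by the median ratio, where 17.4% of all genes were higher, the pair was still higher by 0.96 ± 0.33 with an adjusted p of 0.0475. The DUF640 gene turned with the scale, from 0.63 ± 0.41 (adjusted p = 0.128) as deposited to -1.99 ± 0.23 (adjusted p = 0.000848) after rescaling, so no direction is given for it. The natriuretic peptide and transporter genes did not pass the filter. With no filter the natriuretic peptide gene was lower in whole seed, at -0.58 ± 0.14 (adjusted p = 0.00719 by limma). Scaled to described models it passed the filter and was lower by limma, at -2.02 ± 0.24 (adjusted p = 0.000521). It passed there only through the 5-6 mg coats, at 2.41 and 3.86 against 0 in whole seed. A lower level in whole seed was thus built in, and that scaled result is a description.

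Away from the seed the natriuretic peptide and transporter transcripts were at the limit of detection. The natriuretic peptide gene had 0 reads in both leaf and both flooded root libraries, 1 read over both root libraries and 1 read in 412.7 M alignments of the flower library. A count of 0 here allows 3 reads per group, which puts leaf at least 372-fold and flooded root at least 318-fold lower than coats of 10-100 mg. The transporter gene had 0 reads in root and flooded root, 1 read in leaf and 2 in flower, and was at least 924-fold lower in root. These limits cover counting error only.

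The ribonuclease H-like gene had 0 reads in flooded root, 2 over both root libraries and 46 in the flower library, which is 0.205 RPKM. Its leaf values were 0.149 RPKM in Richland and 0.0179 RPKM in T157, from 20 reads over both libraries. The DUF640 gene was the exception, with a level in root that rested on 815 reads. It gave 1.29 and 1.78 RPKM in root, 1.41 and 1.32 RPKM in flooded root, 0.208 RPKM in flower and 0.0751 and 0.0453 RPKM in leaf. The root and flooded root values lay close to the 0.9498 to 1.41 RPKM of coat without hilum, 1 of the 4 being above that range, set across separately normalised tables, so "hilum-restricted" describes this gene within the dissected coat but not among all tissues.

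Against coats of 10-100 mg all 5 genes were lower in leaf (background 26.5%) and all 5 in root (background 20.5%) by limma. The natriuretic peptide and transporter genes passed the filter on mean RPKM only through the coats. A lower level in leaf and root was thus built in for them, and their results here are a description. In leaf the differences ran from -1.76 ± 0.52 for the transporter gene (adjusted p = 0.00645) to -3.13 ± 0.37 for the DUF640 gene (adjusted p = 8.47e-09). In root they ran from -1.77 ± 0.52 for the transporter gene (adjusted p = 0.00676) to -2.88 ± 0.43 for the natriuretic peptide gene (adjusted p = 8.21e-07), with the DUF640 gene at -1.88 ± 0.37. Leaf and root libraries all lay below every coat of 10-100 mg for the 5 genes, as for 26.3% and 21.7% of all genes. With 1 leaf or 1 root library left out, some of these calls were lost, and fewer of all genes were called too. The differences moved little. In leaf the natriuretic peptide gene stood at -2.885, the transporter gene at -1.76 and -1.77 and the DUF640 gene at -3.15 to -3.11. The DUF640 gene stood at -2.02 to -1.74 in root. The lone library was assumed to vary like the other groups. All 5 calls held in both tissues without the W44 coat of 50-100 mg. The coats are shared by both comparisons.

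**Figure D3:**
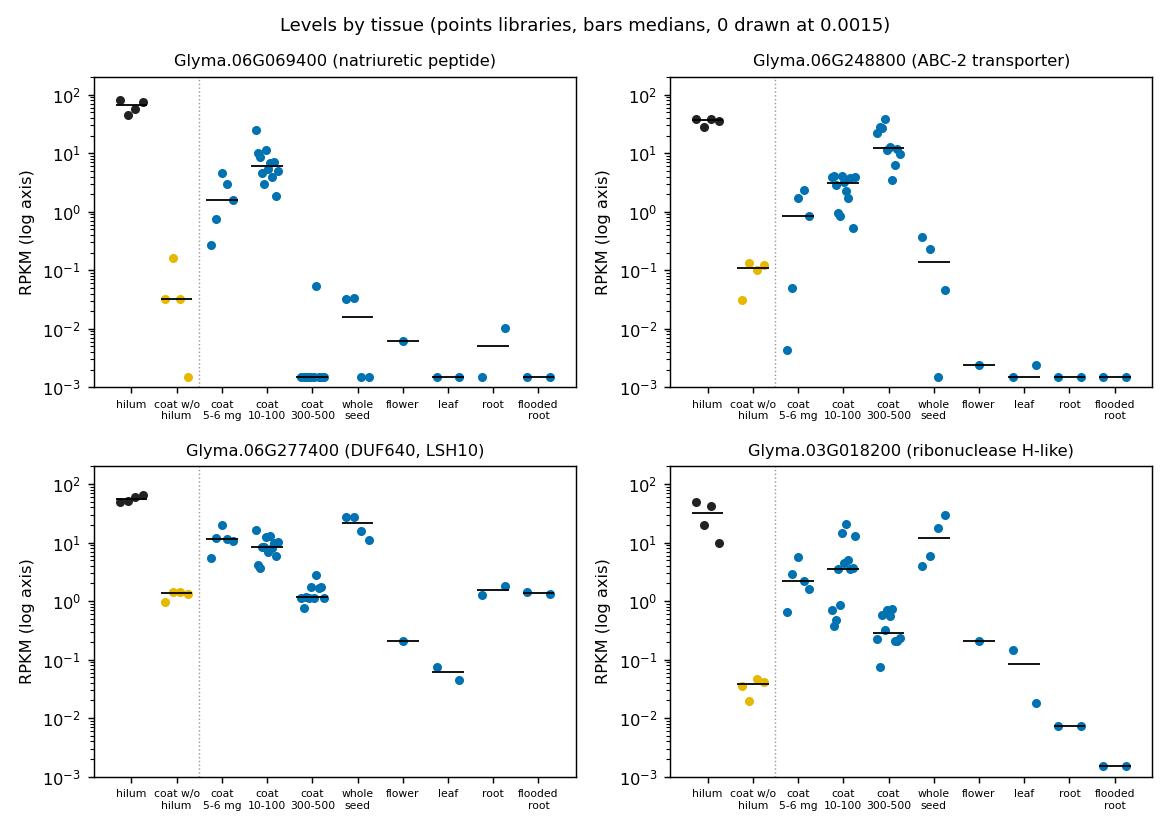
RPKM (log axis) of 4 genes by tissue, with points for libraries and bars for medians. Hilum (black) and coat without hilum (yellow), left of the dotted line, come from a table normalised separately from the rest (blue), and 0 is drawn at 0.0015. The DUF640 gene keeps 1.29 to 1.78 RPKM in root where the transporter gene is at 0.

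In order of their median level over the groups of the second table, the natriuretic peptide gene was highest in coats of 10-100 mg, then in coats of 5-6 mg, with every other group at or near 0. The transporter gene was highest in coats of 300-500 mg, followed by those of 10-100 mg, 5-6 mg and whole seed. The DUF640 gene had its highest median in whole seed, 21.2 RPKM, followed by coats of 5-6 mg at 11.55 and of 10-100 mg at 8.41 RPKM, with overlap at each step. The ribonuclease H-like gene was also highest in whole seed, at 11.8 RPKM, followed by coats of 10-100 mg at 3.59 RPKM, and these overlapped too.

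The lines that differ at the I locus were compared within matched weights. T157 against Richland was fitted over 8 coats with weight as a block, and 0 of 29080 genes passed (background 0%), with 4647 at an unadjusted p under 0.05 and a smallest adjusted p of 0.137. The natriuretic peptide gene differed by -0.16 ± 0.11, the transporter gene by 0.06 ± 0.15 and the DUF640 gene by 0.04 ± 0.09, while the ribonuclease H-like pair did not pass the filter. At 10-25 mg its level was 0.844 RPKM in T157 and 3.54 RPKM in Richland, and at the other 3 weights T157 was higher, with 0.470 against 0.375, 0.586 against 0.227 and 0.322 against 0.0757 RPKM.

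W44 against W43 was fitted with W55 over 12 coats, and 0 of 28909 genes passed (background 0%), with 1658 at an unadjusted p under 0.05 and a smallest adjusted p of 0.255. The ribonuclease H-like gene differed most of the 5, at -0.66 ± 0.28 (adjusted p = 0.858), with W44 lower at 4 of 5 weights and a range of -0.86 to -0.26 when 1 weight was left out. At 10-50 mg the ribonuclease H-like gene gave 3.47 RPKM in W44 and 20.4 RPKM in W43. For W55 against W43, available at 300-400 and 400-500 mg only, 88 genes passed (0.304%) and none of the 5. The transporter gene was lower in W55 at both weights, by 1.17 ± 0.31 on the log2 scale (adjusted p = 0.265), and the DUF640 gene higher at both, by 0.36 ± 0.23 (adjusted p = 1.0). A p that misses the threshold does not show that the lines were alike.

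**Figure D4:**
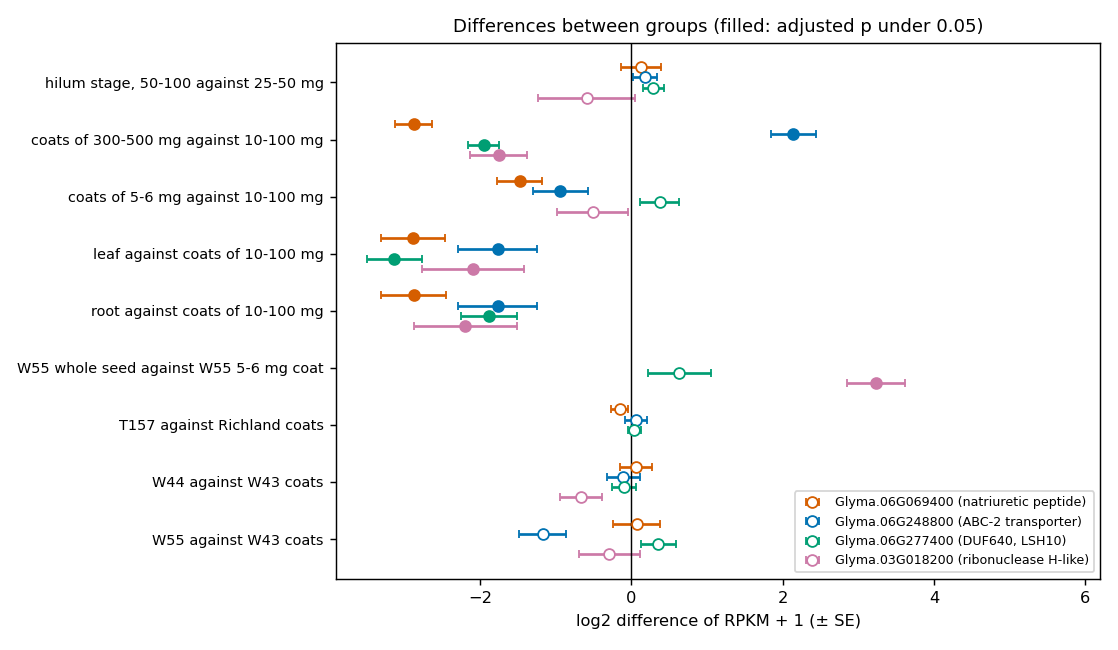
Differences of log2(RPKM + 1) between the first and second named group of each comparison for 4 genes, with standard errors as bars and filled points for an adjusted p under 0.05 by limma. The transporter gene stands alone at 2.14 in coats of 300-500 mg. No point is filled in the comparisons of lines or within the hilum.

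Other genes whose descriptions share a term with those of the 5 were looked up to see whether they were higher in hilum as a set. The terms were natriuretic peptide, ABC-2, DUF640 or LSH, and ribonuclease H-like. The last also takes in genes described as polynucleotidyl transferases, so these sets, called families below, can be broader than gene families. Of 174 such relatives, 63 passed the filter, of which 17 were higher in hilum (27%, background 13.4%) and 10 lower (15.9%, background 26.6%) by limma, with a median difference of 0.13 against -0.11 over all genes tested. Rescaling by the median ratio moved the counts to 23 and 8. These counts are a description, since the descriptions were taken from the 5 genes.

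Of 24 DUF640 relatives 9 were tested, 5 were higher, 0 lower and 4 not called. Glyma.13G270300 gave at least 113.8 RPKM in each hilum library, with a mean of 126.2 ± 10.8 (SD, n = 4), and 11.8 to 15.8 RPKM in the rest of the coat, a rise of 3.19 ± 0.12 (adjusted p = 6.74e-06), so it exceeded Glyma.06G277400 in hilum level while also being expressed outside it. Glyma.12G229500 gave 44.3 to 74.0 RPKM against 6.58 to 8.52 RPKM, and Glyma.12G128100 gave 11.8, 4.26, 13.4 and 5.55 RPKM against 0.115 to 0.287 RPKM, a 48.4-fold ratio.

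Of 50 ABC-2 transporter relatives 19 were tested, 8 were higher and 4 lower. Glyma.03G175300 gave 13.3, 8.05, 12.9 and 11.4 RPKM in hilum against 0.204 to 0.303 RPKM, a rise of 3.29 ± 0.14 (adjusted p = 1.44e-05) and a ratio of 46.2. Glyma.19G176000 rose by 2.03 ± 0.21 and Glyma.12G020300 by 0.85 ± 0.20, while Glyma.13G279800 fell by 2.21 ± 0.23 and Glyma.13G183400 by 1.14 ± 0.21.

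Of 96 ribonuclease H-like relatives 33 were tested, with 3 higher, 6 lower and 24 not called. Glyma.03G018000, close to the pair by its gene number, gave 33.8, 14.2, 26.8 and 6.37 RPKM in hilum against 0.0665 to 0.150 RPKM, a rise of 4.05 ± 0.43 (adjusted p = 0.000421) in the same high and low libraries as the pair. Whether its reads are shared with the pair was not tested. The most abundant relatives in hilum, Glyma.13G192200 and Glyma.15G230500, differed by -0.07 ± 0.13 and 0.02 ± 0.12. Of the others called, Glyma.06G063300 rose by 0.49 ± 0.14, and Glyma.13G314100 fell by 2.33 ± 0.26 and Glyma.12G187400 by 1.59 ± 0.20.

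Of 4 natriuretic peptide relatives 2 were tested. Glyma.06G071400 rose by 0.63 ± 0.12 (adjusted p = 0.0053), from a mean of 0.591 to 1.45 RPKM. Glyma.15G186700 gave 10.4 and 8.13 RPKM in the first hilum library of each weight and 0.0575 and 0.0899 RPKM in the second, so its mean rested on 2 libraries of 1 series, and it was not called (1.70 ± 0.83, adjusted p = 0.139).

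**Figure D5:**
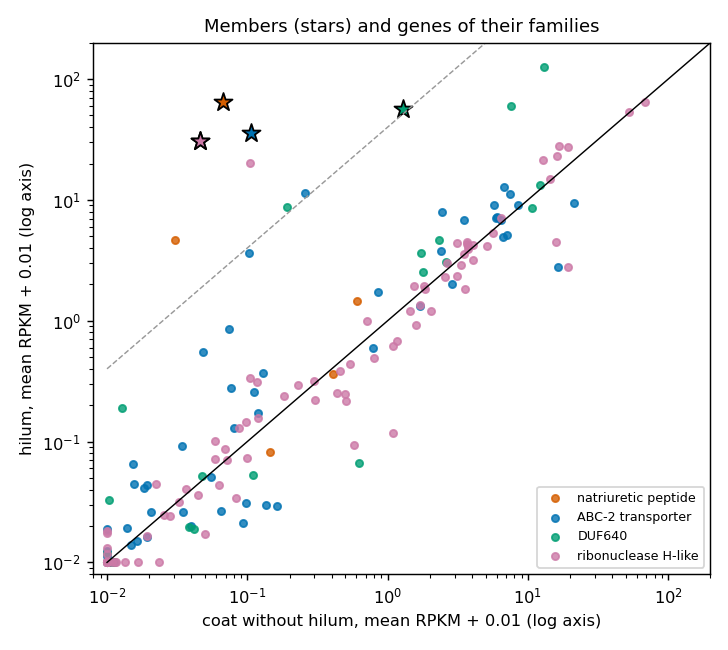
Mean RPKM + 0.01 in hilum against coat without hilum, on log axes with 4 libraries each. Stars are the 5 genes, with the 2 on chromosome 3 overlying each other. Dots are other genes that share a description term with them. The solid line marks equal levels and the dashed line a 40-fold ratio. Of the 63 relatives tested 17 were called higher and 10 lower, and the stars lie beyond the dashed line.

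Genes with the most similar pattern over the 38 libraries of lines and tissues were named by Pearson correlation of log2(RPKM + 0.1), as a description across libraries that share lines, depth and tissue groups. For the natriuretic peptide gene these were Glyma.12G153900 (ubiquitin-conjugating enzyme 25, r = 0.97), Glyma.02G179500 (AINTEGUMENTA-like 7, r = 0.97) and Glyma.09G186600 (a DUF239 protein, r = 0.97). In dissected tissue all 3 went the other way, with means of 0.307, 0.0536 and 0.470 RPKM in hilum and 3.71, 2.35 and 7.12 RPKM in the rest of the coat. For these 3 genes a similar course over the 38 libraries did not go with a higher level in hilum.

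For the transporter gene the closest were Glyma.17G041400 (P-glycoprotein 11, r = 0.96), Glyma.13G237700 (a late embryogenesis abundant protein, r = 0.96) and Glyma.19G118400 (WUSCHEL related homeobox 11, r = 0.96). Their hilum means were 0.765, 0.416 and 0.435 times those of the coat. For the DUF640 gene they were Glyma.08G212800 and Glyma.07G030100 (both histidine phosphotransfer protein 6, r = 0.92 and 0.91) and Glyma.17G143600 (myb domain protein 5, r = 0.91), with hilum means 1.21, 1.29 and 0.370 times those of the coat. For the ribonuclease H-like gene they were its twin, Glyma.03G018000 (r = 0.97) and Glyma.08G111800 (small ubiquitin-like modifier 2, r = 0.89), the last 2.49-fold higher in hilum.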

How the data were processed

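Both tables held RPKM values that the authors deposited, per the file headers, for 88647 transcript models. Bowtie is named in the submitters' processing notes; the sources used here do not give its role, settings, version or genome. Libraries were made with TruSeq or stranded TruSeq kits, per the labels, and whether counting used strand is not given, so antisense reads cannot be told apart. Multiplied by cDNA length and library total, 100% of values lay within 0.01 of whole reads, which yielded the totals and the read numbers printed. No coordinates or sequences are printed, since the annotation used here shares no gene IDs with the tables.

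Each gene was represented by its longest-cDNA model, and 4 columns of values with no sample label were not used. The members and lists were chosen with earlier results of these data known. Tests used lmFit and trended eBayes of limma 3.58.1 (R 4.3.3) on log2(RPKM + 1). Genes averaging 1 RPKM or more over a fit's libraries entered it, and p was adjusted over all of them by Benjamini-Hochberg with a threshold of 0.05. Hilum and stage were fitted over 8 libraries, and coats, leaf and root over all 38 with a term for each tissue group. W55 whole seed against its 5-6 mg coat was fitted over 4 libraries, T157 against Richland over 8 and W44 and W55 against W43 over 12, both with weight as a block. Some of the fits were also run on simulated reads with planted changes. Beyond those changes the reads held no differences between lines, weights, title series or shares without description, so the simulation does not cover these. Titles of the hilum table fall into 2 number series whose libraries deviate together (r = 0.44 to 0.66), and a block for the series was one alternative.

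Named genes are the 5 members, the 3 described genes on each side of the 40-fold ratio (hilum mean of at least 5 RPKM), the 3 most similar genes per member, and in each family the 2 most abundant relatives in hilum and up to 2 called in each direction with the largest change. No pair of libraries within a group agreed within sampling noise, but many of these pairs differ in seed weight or flooding time. It also held for the pairs alike in line, tissue and weight, which are the dissected W43 groups and W55 at 5-6 mg and in whole seed. Alternatives were a pseudocount of 0.1, no filter, rescaling by the median ratio, summing all models, blocks, leaving out libraries and, chosen after seeing the data, scaling to alignments in described models and leaving out both W55 5-6 mg coats. Figures were drawn with matplotlib 3.10.9 and tables made with pandas 2.3.3 under python 3.11.15, with exact intervals from scipy 1.17.1.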

Additional observations from a re-analysis of the deposited data

Results flagged for a closer look

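Among 25 groups of 4 to 10 libraries tested for a library far from the others, 3 were marked. Chance marks about 1 in 20 of independent groups of like libraries. These groups mix lines or weights and hold both genes of the pair, so that rate is only nominal here. The natriuretic peptide gene Glyma.06G069400 was at 0.0539 RPKM in the W55 coat of 300-400 mg, which is 2 reads, while the other 9 coats of 300-500 mg were at 0. With all others at 0, any read in a lone library would have been marked. The DUF640 gene Glyma.06G277400 was at 2.83 RPKM in that same library, with the next highest at 1.78 RPKM. In coat without hilum the same gene was lowest in the first library of 25-50 mg, at 0.9498 RPKM, with the next at 1.35 RPKM.

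From the first weight (10-25 mg in Richland and T157, 10-50 mg in W43 and W44) to 50-100 mg, 2 genes moved in opposite directions in these pairs of lines, a difference that was not tested. On the log2(RPKM + 1) scale the natriuretic peptide gene rose by 0.98 in Richland and 1.29 in T157 and changed by -0.69 in W43 and -1.51 in W44. The transporter gene Glyma.06G248800 rose by 1.37 in Richland and 1.09 in T157 and changed by -0.25 in W43 and -1.63 in W44. The W44 value rests on the library with 56.2% of alignments in models with no description, and the first weights differ between the pairs.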

How the results depend on the processing

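Over all alternatives 81 recomputed counts of the 5 genes called stayed within 1.5 times the reported count and 9 did not. These counts do not track which genes were called or in which direction. Rescaling by the median ratio kept 2 calls at 5-6 mg, but these were the natriuretic peptide gene lower (-0.94) and the DUF640 gene higher (1.31). The transporter gene was not called there. For coats of 5-6 mg the 2 calls became 1 with no filter on low values and 0 without both W55 libraries, and 0 to 2 with each 5-6 mg library left out. Leaf and root lost some of their 5 calls with either library left out, where fewer of all genes were called too. The W55 whole seed comparison had 4 calls when scaled to described models. The ribonuclease H-like pair was higher in whole seed (1.43), and the natriuretic peptide (-2.02) and DUF640 (-1.76) genes were lower. The natriuretic peptide gene entered that fit only through the coats, so its call is a description. With no filter, 27 in place of 17 relatives were higher in hilum. The title numbers 1 and 2 of W55 coat and whole seed do not pair the samples (r = -0.078). With them as a block the ribonuclease H-like gene stayed at 3.24 and the DUF640 gene at 0.63, with 23968 genes called in place of 24148.

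Of the recomputed differences (log2) 365 kept their direction and call, 5 gained and 21 lost the call, and 21 turned direction, none of the last called as reported. Leaving out 1 hilum library gave ranges between weights of -0.29 to 0.55 for the natriuretic peptide gene, -0.036 to 0.39 for the transporter gene, and -1.58 to 0.41 for both ribonuclease H-like genes. Leaving out 1 weight gave -0.069 to 0.20 (transporter) and -0.034 to 0.10 (DUF640) for T157, -0.18 to 0.27 (natriuretic peptide) and -0.26 to 0.081 (transporter) for W44, and -0.054 to 0.17 (natriuretic peptide) for W55. In coats of 5-6 mg, rescaling by the median ratio and scaling to described models gave 0.20 and 0.18 for Glyma.03G018200 and 0.17 and 0.15 for Glyma.03G018300. They gave -1.99 and -1.76 for the DUF640 gene in W55 whole seed and 0.048 and 0.064 in W44. The cause was not tested.

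Over all genes the calls ranged from 0 to 188 within hilum, 103 to 27132 for 5-6 mg, 7542 to 19789 for leaf, 6838 to 21352 for root, 9611 to 37250 for W55 whole seed, 0 to 55 for W44 and 5 to 369 for W55 against W43. Rescaling brought the median of all genes from -0.34 to 0 in leaf, from -0.12 to -0.01 in root, and from -0.50 to -0.02 at 5-6 mg. Depth limits the lowest values, since 3 reads of the natriuretic peptide gene are worth 0.422 RPKM in the shallowest coat of 10-100 mg.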
